A study of Mus musculus with 6 samples.

Results

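The effect of losing Ovol2 in keratinocytes that already lacked Ovol1 was examined by setting the 2 arrays titled Ovol1/2 DKO against the 2 titled Ovol1 KO, 4 of the 6 arrays of the series, across all 19938 genes with a single symbol. Keratinocytes were isolated from the skin of C57BL/6 mice at E18.5, with 2 mice pooled on each array. They were cultured for 2 to 5 days and then for 3 to 5 days with calcium, which makes cultured keratinocytes stratify and differentiate. Both groups were Ovol1-/-. The double knockout (DKO) in addition carried K14-Cre, a recombinase driven by a promoter of basal keratinocytes, and 1 floxed and 1 lost Ovol2 allele. For the Ovol1 KO the labels give neither a Cre transgene nor the Ovol2 genotype, so the loss of Ovol2 and the presence of Cre cannot be told apart here. The 2 control arrays (Ovol2flox/+ with either Ovol1+/- or K14-Cre) entered the estimate of the spread, and their values are given for some of the genes.

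Ovol1 and Ovol2 encode related zinc finger transcription factors of epithelia that act mainly as repressors. Ovol2 is known for holding cells in an epithelial state, in part by repressing Zeb1, itself a repressor of junction and adhesion genes. In skin, basal keratinocytes stop dividing as they move up, exchange keratins 5 and 14 for keratins 1 and 10, and then build the cornified envelope and the lipid barrier.

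The values below are log2(intensity + 16), quantile-normalized over the arrays, and a fold change is the difference between group means on that scale. An intensity of 0 would lie at 4 before normalization, and no detection call separates a dim gene from background. A gene was called at a limma adjusted p below 0.05 over all genes. The labels call the arrays biological replicates, and in bulk cultures fewer cells of a type and less RNA per cell cannot be told apart. Of 12 keratinocyte markers 2 rose (Krt1 and Krt10), 1 fell (Itgb4) and 9 did not pass, where 2.15% of all genes were called. Of the 12, limma called 0 without Ovol1 KO 1, 1 rise without Ovol1 KO 2, and 2 rises without DKO 1 or DKO 2. Among the 9 were the basal keratins Krt5 (13.72 and 13.80 in Ovol1 KO, 13.80 and 13.94 in DKO) and Krt14 (13.67 and 13.62 in Ovol1 KO, 13.64 and 13.61 in DKO).

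The probe set of Ovol2 lay at 9.0045 and 8.9929 in the Ovol1 KO arrays and at 8.71 and 8.32 in the DKO arrays, with 8.12 and 8.82 in the control arrays. Both DKO arrays were below both Ovol1 KO arrays, but the difference of -0.48 (SE 0.27, limma adjusted p = 0.52) did not pass. Whether the Ovol2 probe set lies in the deleted part is not given in the sources used here, so its signal checks no label. Ovol1 lay at 10.53 and 10.22 in Ovol1 KO and at 10.58 and 10.59 in DKO, with 10.27 and 9.85 in control. Its probe set thus showed no loss of signal in either knockout group. Between DKO and Ovol1 KO, Ovol1 differed by 0.21 (SE 0.21, limma adjusted p = 0.68) and Ovol3, the third member, by 0.27 (SE 0.22, adjusted p = 0.63). All arrays are labelled female, but Xist, the RNA of the silenced X chromosome, lay at 4.59 in Ovol1 KO 1 and at 11.97 in Ovol1 KO 2, against 12.12 and 12.26 in DKO 1 and 2. Eif2s3y, on the Y chromosome, lay at 13.89 in Ovol1 KO 1 and between 5.19 and 5.48 in the other 3. By these genes Ovol1 KO 1 and both control arrays (Xist at 4.71 and 4.65) went against their label, and counts are given with and without Ovol1 KO 1.

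In DKO the tight junction genes Cldn7, Cldn3 and Epcam, the simple keratin gene Krt8 and the membrane protease genes Tmprss11e and Prss22 fell, while most members of their lists did not pass. The suprabasal keratin genes Krt1 and Krt10, the transcription factor genes Pou2f3 and Zeb1 and the deacetylase-like gene Aadacl2fm1 rose. In all, 131 genes rose and 298 fell in DKO, which is 2.15% of those tested (0.657% higher and 1.49% lower). Of these, 123 rises and 272 falls were at least 2-fold, and 11 rises and 24 falls at least 16-fold. For all 429 the DKO arrays lay outside the range of the Ovol1 KO arrays, as they did for 42.2% of all genes. Genes that fell started from a median of 10.06 in Ovol1 KO and ended at 7.95, while genes that rose went from 7.98 to 10.64. Of the falls, 97 ended below 6.87, the lower quartile of all gene means. On the sex chromosomes lay 4.20% of the called genes and 3.77% of all genes. That share cannot check for an effect of sex, because the Xist split falls within the Ovol1 KO pair and widens the spread. Xist, Eif2s3y and the Y gene Kdm5d differed by 3.91, -4.16 and -3.51 and did not pass.

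The number of calls changed with single arrays left out. Without Ovol1 KO 1, whose Xist level was unlike that of the other 3 arrays, 23 genes were higher and 65 lower, and 86 of these 88 were among the 429. The 429 log2 fold changes stood at a median of 0.945 times their value. These genes were called with that array in the fit, so the ratio is no independent check of their size. Single genes moved more, such as Arg1, from -6.27 to -3.35 over the left-out arrays. The sign of the 429 could not change, because for each both DKO arrays lay on the same side of both Ovol1 KO arrays. The counts were 67 and 150 without Ovol1 KO 2, 48 and 147 without DKO 1, and 91 and 141 without DKO 2. They were 235 and 503 without control 1 and 228 and 506 without control 2, where the group means compared are the same and only the pooled spread differs. With each of the 6 arrays left out in turn, 18 rises and 54 falls were called every time. These 72 genes are said below to have kept their call throughout.

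**Figure D1:**
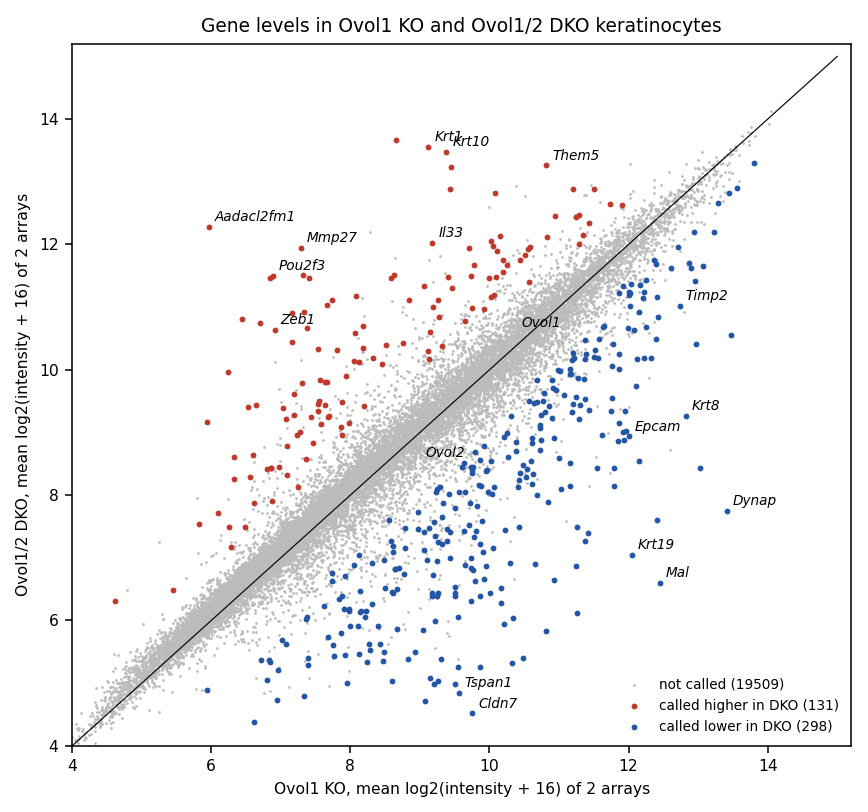
Mean log2(intensity + 16) of each of 19938 genes in the 2 Ovol1 KO arrays (horizontal) and the 2 DKO arrays (vertical), with the line of equal levels; red points are the 131 called rises and blue points the 298 called falls. Mal, Dynap and Cldn7 are among the falls farthest from the line, and the rises include Aadacl2fm1, Krt1, Krt10 and Pou2f3.

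Among the rises the largest was that of Aadacl2fm1, an arylacetamide deacetylase-like gene. It lay at 5.95 and 5.99 in Ovol1 KO and at 12.67 and 11.89 in DKO, with 6.21 and 6.36 in control, and rose by 6.31 (SE 0.27, limma adjusted p = 0.00026). The DKO arrays stood far above the other 4. Its relative Aadacl2 rose by 3.72 (5.78 and 6.69 in Ovol1 KO, 10.28 and 9.64 in DKO), and Aadac, a lipid and drug esterase, rose by 2.29 from 6.06 and 6.60 to 9.01 and 8.22. Aadacl2fm1, Gm9696, Aadacl2 and Aadac follow one another on chromosome 3 among the genes tested, and all 4 rose. Gm9696, chosen after its values were seen, rose by 5.01 from 8.53 and 8.77 to 13.78 and 13.55. Aadac lost its call without Ovol1 KO 1 (2.02) or DKO 1 (1.89), and the other 3 kept theirs throughout.

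Several rises belonged to differentiating or surface epidermis. Krt10, the type I keratin of suprabasal cells, lay at 9.28 and 9.48 in Ovol1 KO and at 13.93 and 13.01 in DKO and rose by 4.09 (SE 0.37, limma adjusted p = 0.0039). Its partner Krt1 lay at 8.97 and 9.27 against 14.70 and 12.40 and rose by 4.43 (SE 0.64, adjusted p = 0.022). The 14.70 of Krt1 on DKO 1 is the highest value of any gene on that array, and the 2 DKO arrays were wide apart. Krt10 lost its call without Ovol1 KO 1 (3.99), and Krt1 without Ovol1 KO 1 (4.28) or Ovol1 KO 2 (4.58), and Krt1 was 3.28 without DKO 1. Them5, an acyl-CoA thioesterase gene, rose by 2.44 (10.58 and 11.06 against 13.32 and 13.20) and kept its call throughout. Control lay at 9.93 and 9.67 for Them5, below the Ovol1 KO arrays.

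Pou2f3, a POU domain factor of suprabasal epidermis and of tuft cells, stood at 6.7844 and 6.9975 in Ovol1 KO and at 11.84 and 11.15 in DKO, a rise of 4.60 (SE 0.26, limma adjusted p = 0.0008). Its control values of 6.72 and 6.83 were like those of Ovol1 KO. Gsdmc, of the pore-forming gasdermins, rose by 4.61 from 6.55 and 7.15 to 11.9108 and 11.0034. Mmp27, a matrix metalloproteinase gene, rose by 4.66 from 7.09 and 7.48 to nearly equal DKO values of 11.95 and 11.94. The cysteine protease inhibitor gene Stfa2 rose by 4.20 (7.09 and 7.54 against 11.11 and 11.92). These 4 kept their call throughout. The neighbouring Stfa3 rose by 3.45, and its Ovol1 KO arrays were unlike each other, at 8.70 and 10.16. Stfa3 lost its call without DKO 1 (3.45) or DKO 2 (3.46), and stefin probe sets may not separate the close copies of this family.

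Further large rises were those of Ackr4, Igfbp4, Cdhr1, Postn and Akr1d1. Ackr4, an atypical receptor that scavenges chemokines, lay at 6.78 and 6.63 in Ovol1 KO and at 10.76 and 10.73 in DKO, a rise of 4.05 (SE 0.17, limma adjusted p = 0.00026) with closely matching arrays in every group. Igfbp4, which binds insulin-like growth factors, rose by 3.74, and the protocadherin-like gene Cdhr1 by 3.58. Both kept their call throughout. Postn, which encodes the matrix protein periostin, lay at 6.58 and 6.31 against 11.14 and 10.49 and rose by 4.37. It lost its call without Ovol1 KO 1 (4.51), Ovol1 KO 2 (4.24) or DKO 1 (4.05). Akr1d1, a steroid reductase gene, rose by 4.06 (SE 0.74, adjusted p = 0.048) from unlike Ovol1 KO values of 6.49 and 8.32. Leaving out any of the 4 compared arrays ended its call, with values from 3.14 to 4.97.

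The largest fall was that of Mal, a raft proteolipid of apical transport, at 12.62 and 12.28 in Ovol1 KO and 7.21 and 6.00 in DKO. The log2 fold change was -5.85 (SE 0.39, limma adjusted p = 0.0014), and the control arrays, at 12.78 and 12.37, sat with Ovol1 KO. Dynap, a membrane protein gene, lay at 13.52 and 13.30 against 8.03 and 7.46 and fell by 5.66 (SE 0.20, adjusted p = 0.00015). Tspan1, a tetraspanin of secretory and apical membranes, fell by 4.72 from 9.63 and 9.49 to equal DKO values of 4.84. These DKO values were dim, and the size of the Tspan1 fall depended on the offset, at -5.77 for 1 and -3.39 for 64. P2rx2, an ATP-gated channel, fell by 5.07 (10.74 and 10.21 against 5.61 and 5.20). F2rl2, of the thrombin receptor family, fell by 4.97 (11.08 and 10.53 against 6.38 and 5.29). All 5 kept their call throughout, and for each the DKO arrays were far below the other 4.

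Further falls among the 15 largest were those of Ltf, Clca3b, Arg1, Psca and Coch. Ltf, which encodes the iron-binding protein lactoferrin, fell by 4.36 from 8.80 and 9.33 to 4.53 and 4.89, and Clca3b, of the Clca secreted proteins, fell by 5.14 (11.45 and 11.07 against 6.46 and 5.78). Both kept their call throughout. The DKO values of Ltf were dim, and the size of its fall depended on the offset, at -5.59 for 1 and -2.98 for 64. Arg1, which encodes arginase, lay at 12.22 and 12.58 against 9.06 and 6.14, a fall of 4.81 that was lost without Ovol1 KO 1 (-4.99) or Ovol1 KO 2 (-4.63) and was -3.35 without DKO 2. Psca, a surface antigen gene of the Ly6 family, lay at 13.18 and 12.87 against 9.78 and 7.08. It fell by 4.59 and lost its call without Ovol1 KO 1 (-4.44) or Ovol1 KO 2 (-4.75). Coch fell by 4.51 (10.05 and 8.96 against 4.98 and 5.01), and its call was lost without any 1 of the 4 arrays, with values from -5.06 to -3.97. The Coch fall also depended on the offset, at -5.41 for 1 and -3.28 for 64, where it was not called.

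**Figure D2:**
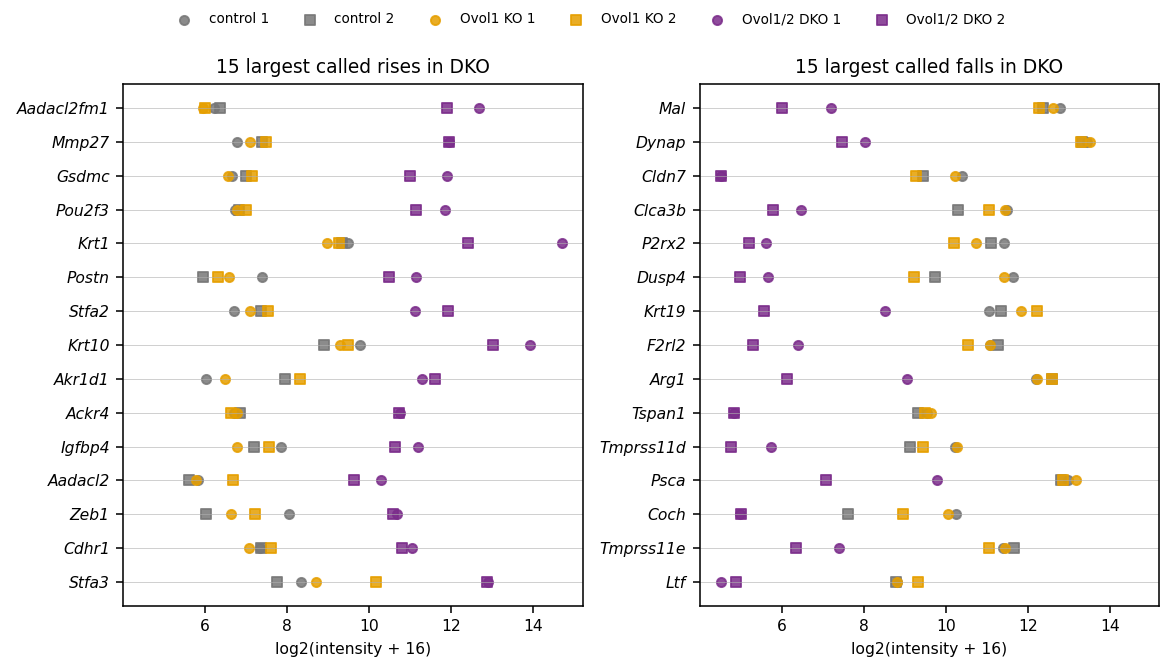
Log2(intensity + 16) on each of the 6 arrays for the 15 largest called rises (left) and the 15 largest called falls (right), with replicate 1 as circles and replicate 2 as squares. The purple DKO points lie apart from the orange Ovol1 KO points in every row, the grey control points lie near the Ovol1 KO points in most rows, and Krt1, Krt19, Arg1 and Psca have widely spaced DKO points.

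Among the gene lists, tight junction genes held 6 falls and 0 rises among 19 measured, against 1.49% of all genes lower, and 13 did not pass. The list's median was -0.78 (-0.51 without Ovol1 KO 1), beside 0.09 over all genes. This list and those below were chosen with earlier results of these data known, so their counts are no independent evidence. The shares to set beside each list below are 0.657% of all genes higher and 1.49% lower. An unadjusted limma p below 0.05 was found for 2646 of the 19938 genes. Cldn7, a claudin of the epithelial barrier, lay at 10.23 and 9.28 in Ovol1 KO and at 4.52 and 4.51 in DKO, and fell by 5.23 (SE 0.40, limma adjusted p = 0.0021). Its DKO values were dim, and the size of its fall depended on the offset, at -6.75 for 1 and -3.69 for 64. Cldn3, another claudin, lay at 11.56 and 11.19 against 7.57 and 6.96 and fell by 4.11. Epcam, an adhesion molecule that binds and stabilizes claudins, lay at 12.07 and 11.93 against 8.62 and 9.25 and fell by 3.06. The tight junction membrane gene Marveld3 fell by 2.96 (9.71 and 9.29 against 6.63 and 6.46).

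Cldn4 fell by 1.53 from 13.12 and 12.78 to 11.28 and 11.56, and Cldn6, a claudin of embryonic epithelia, fell by 4.28 from 9.91 and 9.17 to 5.71 and 4.81. Cldn7, Cldn3, Epcam and Marveld3 kept their call throughout. Cldn4 lost its call without Ovol1 KO 1 (-1.37) or DKO 1 (-1.39), and Cldn6 without any 1 of the 4 compared arrays (-4.73 to -3.83). The list then held 4 falls without Ovol1 KO 1 and 5 without any other of those 4. Not all claudins were alike: the log2 fold change was -0.42 for Cldn1, the main claudin of epidermis (limma adjusted p = 0.052), 0.31 for Cldn2 and 0.21 for Cldn5.

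Adherens junctions and desmosomes, the anchoring junctions of keratinocytes, held no call. Of 13 adherens junction genes 0 passed in limma, although 7 had an unadjusted p below 0.05, and the list's median was -0.31. Cdh1, which encodes E-cadherin, lay at 12.94 and 13.02 in Ovol1 KO and at 12.60 and 12.74 in DKO, a difference of -0.31 (SE 0.08, adjusted p = 0.15). Cdh2, which encodes N-cadherin, was lower too, at -1.25 (SE 0.25, adjusted p = 0.065). Of 12 desmosome genes 0 passed and 0 had an unadjusted p below 0.05, with values from -0.64 to 0.32. The gap junction gene Gjb2, which encodes connexin 26, rose by 2.04 (9.96 and 10.08 against 12.38 and 11.73), 1 of 6 in its list. Without any 1 of the 4 compared arrays Gjb2 was not called, at values from 1.71 to 2.37.

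Keratins of simple and mucosal epithelia held 3 falls among 9, against 1.49% of all genes lower, and 6 did not pass. Krt8 lay at 13.17 and 12.48 in Ovol1 KO and at 9.16 and 9.35 in DKO and fell by 3.57 (SE 0.28, limma adjusted p = 0.0022). Krt7 fell by 2.95 (12.12 and 11.81 against 9.39 and 8.64), and Krt19 fell by 4.99 (11.85 and 12.24 against 8.52 and 5.58). Krt18, the partner of Krt8, stood at 13.03 and 12.17 against 10.00 and 7.43, a log2 fold change of -3.88 that did not pass (SE 0.78, adjusted p = 0.066). Krt8 kept its call throughout, Krt7 lost it without Ovol1 KO 1 (-2.79), and Krt19 without Ovol1 KO 1 (-5.19) or Ovol1 KO 2 (-4.80). The list held 1 fall without Ovol1 KO 1, 2 without Ovol1 KO 2, 4 without DKO 1 and 3 without DKO 2.

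Of 17 genes listed as epithelial identity regulators, among them polarity and protease genes, 7 fell and 0 rose, against 1.49% of all genes lower. The other 10 were not called, and the median was -0.66. Elf3, an epithelial Ets factor, lay at 11.19 on both Ovol1 KO arrays and at 9.46 and 9.19 in DKO and fell by 1.86 (SE 0.18, limma adjusted p = 0.0047). The polarity genes Crb3 and Pard6b fell by 3.08 (10.50 and 9.39 against 7.03 and 6.69) and 1.66. The membrane proteases Prss8 (prostasin) and St14 (matriptase) fell by 1.85 and 1.71, and their inhibitors Spint1 and Spint2 by 1.23 and 0.58. The factors Grhl1, Grhl2 and Grhl3, at -0.13, -0.35 and 0.28, and the splicing regulators Esrp1 and Esrp2, at 0.04 and -0.03, did not pass. The list held 0 calls without Ovol1 KO 1, where Elf3 was at -1.86 and Crb3 at -2.52, and 5, 3 and 1 falls without Ovol1 KO 2, DKO 1 and DKO 2. Crb3, Pard6b, Prss8 and St14 also lost their call without DKO 1 or DKO 2, Spint1 without any 1 of the 4 compared arrays (-1.47 to -0.996118), and Spint2 without any 1 of all 6 (-0.60 to -0.57).

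Of 23 membrane-anchored serine proteases and kallikreins 8 fell and 0 rose, against 1.49% of all genes lower. The other 15 were not called, and the median of -0.90 was -0.22 without Ovol1 KO 1. Prss8 and St14, already counted in the list before, are among the 8. Tmprss11e lay at 11.44 and 11.05 in Ovol1 KO and at 7.40 and 6.34 in DKO and fell by 4.37 (SE 0.35, limma adjusted p = 0.0024). Prss22 fell by 3.42 (9.94 and 9.52 against 5.95 and 6.67), and both kept their call throughout. Tmprss11d fell by 4.61 from 10.29 and 9.44 to 5.74 and 4.77 and lost its call without Ovol1 KO 1 (-4.19). Tmprss2 fell by 2.73, the kallikrein gene Klk8 by 1.27 and Prss27 by 0.90. Prss22 and Prss27 are neighbours on chromosome 17. Tmprss2, Klk8, Prss27, Prss8 and St14 all lost their call without Ovol1 KO 1, and the list then held 2 falls, against 6, 5 and 3 without Ovol1 KO 2, DKO 1 and DKO 2. Tmprss2 lost it also without Ovol1 KO 2 (-3.13) or DKO 2 (-2.05), Klk8 without DKO 1 (-1.32) or DKO 2 (-1.21), and Prss27 without any 1 of the 4 (-0.93 to -0.86).

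Of 14 suprabasal genes 4 rose and 0 fell, against 0.657% of all genes higher, with a median of 1.20. The list held 2 rises without Ovol1 KO 1, 3 without Ovol1 KO 2 or DKO 1, and 4 without DKO 2. They were Krt1, Krt10, Them5 and Skint3, an epidermal immunoglobulin family gene that rose by 3.22 (6.66 and 5.23 against 9.27 and 9.06) and lost its call without DKO 1 (3.11) or DKO 2 (3.33). The log2 fold change of Krt77 was 1.84, of Krtdap 1.26 and of Sbsn -0.03. Of 43 cornified envelope genes 2 rose. Their median of 0.12 changed sign with single arrays left out, at 0.65 without Ovol1 KO 1, -0.13 without Ovol1 KO 2, 0.75 without DKO 1 and -0.36 without DKO 2. Called were 0 of them without either Ovol1 KO array, 2 rises and 2 falls without DKO 1, and 1 rise without DKO 2. Lor, which encodes loricrin, the main envelope protein, lay at 10.35 and 9.87 against 11.49 and 12.29 and rose by 1.78. Tgm3, whose product crosslinks the envelope, lay at 7.46 and 7.60 against 11.21 and 9.45 and rose by 2.79. With an offset of 64 Tgm3 was at 2.52 and not called. Lor lost its call without Ovol1 KO 1 (2.02), Ovol1 KO 2 (1.53) or DKO 2 (1.38), and Tgm3 without Ovol1 KO 1 (2.72) or Ovol1 KO 2 (2.86).

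Of 22 barrier lipid genes 1 rose, the alkaline ceramidase gene Acer1, by 1.72 (SE 0.32, limma adjusted p = 0.0496). It was not called without any 1 of the 4 compared arrays (1.36 to 2.09). Basal genes held 1 rise and 1 fall among 16. Bcam, a laminin receptor gene, rose by 1.36 (10.44 and 10.68 against 12.06 and 11.79), and the hemidesmosome integrin gene Itgb4 fell by 0.77. Bcam was not called without Ovol1 KO 1 (1.24) or DKO 1 (1.23), nor Itgb4 without any 1 of the 4 (-0.90 to -0.65). Krt6a, Krt16, Krt17 and Krt75, keratins of wounded or stressed skin, did not pass, with values from -0.62 to 0.79. Of 37 cell cycle genes 0 passed and 2 had an unadjusted p below 0.05, and their values spanned only -0.55 (Ccne1) to 0.47 (Ttk).

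Of 22 differentiation transcription factors 3 rose and 1 fell. Beside Pou2f3 these were Maf, which rose by 2.08 (9.08 and 9.74 against 11.80 and 11.17), Pou3f1, which rose by 1.70, and Prdm1 (Blimp1), which fell by 2.08 (11.62 and 10.95 against 8.76 and 9.65). Maf was not called without Ovol1 KO 1 (1.75) or DKO 1 (1.76), and Pou3f1 and Prdm1 were not called without Ovol1 KO 1 (1.63 and -1.74), Ovol1 KO 2 (1.76 and -2.41) or DKO 1 (1.17 and -1.63). Sox9 was lower by 1.47 without passing (adjusted p = 0.065).

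Regulators of the epithelial-mesenchymal transition, in which epithelial cells lose junctions and gain motility, held 1 rise and 3 falls among 17. Zeb1 lay at 6.63 and 7.20 in Ovol1 KO and at 10.69 and 10.59 in DKO and rose by 3.72 (SE 0.59, limma adjusted p = 0.030), while the control arrays were unlike each other at 8.04 and 6.01. Leaving out any 1 of the 4 compared arrays ended the call of Zeb1, with values from 3.43 to 4.01. Foxc2, a forkhead factor, fell by 2.34 (7.73 and 7.80 against 5.51 and 5.35), kept its call throughout, and was -1.55 with an offset of 64. Its relative Foxc1 fell by 2.08 and Hmga2, a chromatin protein gene, by 1.23. Foxc1 was not called without Ovol1 KO 1 (-1.97) or Ovol1 KO 2 (-2.19), nor Hmga2 without any 1 of the 4 (-1.38 to -1.08). The log2 fold changes of Snai1, Snai2, Twist1 and Zeb2 were 0.09, -0.25, 0.05 and 0.63, and none passed.

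Of 20 mesenchymal genes 3 rose and 0 fell, while 9 of the 20 had a value above 0 and the median was -0.02. Cdh2, at -1.25 without passing, is also in this list. Mmp2, a gelatinase gene, rose by 1.86 (8.18 and 8.47 against 10.41 and 9.98), the collagen receptor gene Ddr2 by 2.09 and Tgfbi, a matrix adhesion gene, by 2.25. Mmp2 lost its call without Ovol1 KO 1 (1.72) or DKO 1 (1.65), Ddr2 without Ovol1 KO 2 (1.82) or DKO 2 (1.83), and Tgfbi without Ovol1 KO 1 (1.79), DKO 1 (2.07) or DKO 2 (2.43). Vim, which encodes vimentin, lay at 10.92 and 11.78 in Ovol1 KO and at 12.93 and 12.65 in DKO without passing (adjusted p = 0.52). Fn1, which encodes fibronectin, was lower by 1.41 without passing (adjusted p = 0.11). Of 19 fibroblast markers 2 rose, Postn and Col5a2 (by 1.04, not called without any 1 of the 4 compared arrays, at 0.93 to 1.15), and the summed level of the list was 12.17 and 12.58 in Ovol1 KO and 13.32 and 13.28 in DKO. That sum is over intensities, so bright members weigh most in it. Of the 19 markers 9 had a value above 0, and the median was -0.007. Dpp4 and Pdgfra differed by 2.48 and -0.75 and did not pass (limma adjusted p = 0.093 and 0.11). The defining fibroblast gene Col1a1 lay at 8.60 and 8.44 in Ovol1 KO and at 8.47 and 8.91 in DKO. Dcn, another, had 7.61 and 7.39 in Ovol1 KO and 7.87 and 8.73 in DKO. The part of fibroblasts in these rises was not tested.

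Matrix, motility and protease genes outside the junctions moved in both directions. Of 27 basement membrane and protease genes 2 rose, Mmp27 and the stromelysin gene Mmp3 (by 2.50), and 3 fell. Timp2, a metalloproteinase inhibitor gene, fell by 1.72 (12.89 and 12.58 against 11.11 and 10.94), and the laminin gene Lama4 fell by 1.66. Plaur, the urokinase receptor gene, fell by 3.26, from 10.63 and 9.22 to DKO values whose mean was 6.66. With an offset of 64 Plaur was at -2.77 and not called. Timp2 kept its call throughout, Lama4 lost it without Ovol1 KO 1 (-1.82), Ovol1 KO 2 (-1.50) or DKO 2 (-1.41), and Mmp3 (1.97 to 3.02) and Plaur (-3.96 to -2.56) lost it without any 1 of the 4. Of 25 actin and motility genes 1 fell, the bundling protein gene Fscn1 by 0.71, but 10 had an unadjusted p below 0.05 and 24 of the 25 had a value below 0. Fscn1 was not called without any 1 of the 4 compared arrays, at -0.83 to -0.58.

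Signalling genes showed a few large differences within lists that otherwise did not pass. Of 22 ERK feedback genes 2 fell, with a median of -0.78. Without Ovol1 KO 1 the median was -0.40, and 0 genes were called without Ovol1 KO 1 or DKO 1. Dusp4, a MAP kinase phosphatase gene, fell by 5.00 and varied within Ovol1 KO (11.42 and 9.22 against 5.67 and 4.97). The Dusp4 fall depended on the offset, at -5.70 for 1 and -3.92 for 64, where it was not called. Phlda1 fell by 2.19 (10.91 and 9.95 against 8.04 and 8.43). Both lost their call without Ovol1 KO 1 (-3.90 and -1.71), DKO 1 (-5.35 and -1.99) or DKO 2 (-4.65 and -2.38). Of 20 TGF-beta genes the ligand gene Tgfb2 fell by 2.18 (9.26 and 10.15 against 7.46 and 7.58). Of 26 Wnt genes 0 rose and 1 fell. An unadjusted limma p below 0.05 was found for 17 of the 26, beside 2646 of all 19938 genes. Of the 26, 19 had a value above 0 and the median was 0.44. The fall was that of the ligand gene Wnt11, which fell by 2.83 (9.01 and 9.53 against 6.63 and 6.25), while the ligand gene Wnt3 was higher by 2.39 without passing (adjusted p = 0.068). Tgfb2 was not called without DKO 1 (-2.12) or DKO 2 (-2.24), nor Wnt11 without Ovol1 KO 1 (-3.09), Ovol1 KO 2 (-2.57) or DKO 2 (-2.64). Of 16 Notch and 14 EGF receptor family genes 0 passed in limma, with 3 and 5 at an unadjusted p below 0.05.

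Of 27 cytokine and chemokine genes 2 rose, 2 fell and 23 did not pass. Of the 27, 14 had an unadjusted p below 0.05 and 7 a value above 0, and the median was -0.42. That median was -1.04 without Ovol1 KO 2, -0.18 without DKO 1 and -1.0003 without DKO 2. Il33, an epithelial alarmin, lay at 9.28 and 9.08 in Ovol1 KO and at 12.09 and 11.95 in DKO, rose by 2.84 (SE 0.25, limma adjusted p = 0.0035) and kept its call throughout. Cxcl14, a chemokine of resting epidermis, rose by 1.32. The neutrophil chemokine genes Ppbp and Cxcl5, neighbours on chromosome 5, fell by 4.22 (9.04 and 9.48 against 5.69 and 4.38) and 2.63. The size of the Ppbp fall depended on the offset, at -5.36 for 1 and -3.00 for 64. Ppbp lost its call without Ovol1 KO 1 (-4.45), Cxcl5 without Ovol1 KO 1 (-2.26), DKO 1 (-2.75) or DKO 2 (-2.52), and Cxcl14 without any 1 of the 4 (1.23 to 1.41). Il1a and Cxcl1 were lower by 3.37 and 3.01 without passing (adjusted p = 0.072 and 0.060). Of 19 antimicrobial and stress proteins Stfa2 and Stfa3 rose and Pglyrp1, a bacterial wall binding protein gene, fell by 2.00, which was lost without any 1 of the 4 (-2.27 to -1.72).

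Of 20 interferon responsive genes Rsad2 fell by 2.06 and Ifit2 by 1.34, both from dim levels. Rsad2 lay at 7.87 on both Ovol1 KO arrays and at 5.64 and 5.97 in DKO, and Ifit2 at 7.01 and 7.04 and then at 5.91 and 5.46. Rsad2 lost its call without any 1 of the 4 compared arrays (-2.23 to -1.90) and Ifit2 without Ovol1 KO 1 (-1.35), Ovol1 KO 2 (-1.33) or DKO 2 (-1.11). With an offset of 64 the value of Ifit2 was -0.84. The Clca genes, secreted or membrane proteins that modulate chloride channels, divided within their cluster on chromosome 3. The neighbours Clca3a1 and Clca3a2 rose by 2.80 and 3.29, while the neighbours Clca3b and Clca4b fell by 5.14 and 1.75. Clca3a2 lay at 7.31 and 7.44 in Ovol1 KO and at 10.11 and 11.21 in DKO. Clca3a1 was not called without Ovol1 KO 1 (2.61), Ovol1 KO 2 (2.99) or DKO 2 (2.31), Clca3a2 without Ovol1 KO 1 (3.22) or Ovol1 KO 2 (3.35), and Clca4b without Ovol1 KO 1 (-1.71). Clca4b was -1.02 with an offset of 64. Its control values of 6.16 and 5.82 lay between those of Ovol1 KO (7.01 and 6.92) and DKO (5.04 and 5.38). Close copies in this family may share probes.

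Of the remaining lists, 20 Nrf2 targets and glutathione transferases gave 2 rises, Gstm1 by 1.56 and Gstm3 by 1.45, and 1 fall. Gstm3 was not called when the mean over the probe sets of a gene was used. The fall was that of Gsto1, by 0.63. None of these 3 was called without Ovol1 KO 1, where they were at 1.35, 1.27 and -0.68. Gstm1 was not called without DKO 1 (1.47) or DKO 2 (1.65) either, nor Gstm3 (1.41 to 1.63) and Gsto1 (-0.65 to -0.58) without any other of the 4 compared arrays. Among 14 purinergic and protease-activated receptors P2ry4, a nucleotide receptor gene, rose by 1.57 beside the falls of P2rx2 and F2rl2, and was not called without Ovol1 KO 1 (1.48). Skint11, a relative of Skint3, rose by 1.69 from a dim 4.57 and 4.66. It was not called without Ovol1 KO 1 (1.65) or Ovol1 KO 2 (1.73) and its size depended on the offset, at 2.74 for 1 and 0.83 for 64. Tspan6 fell by 1.01, the hypoxia gene Ndrg1 by 0.98 and the follicle gene Plet1 by 0.66, and all 3 lost their call without Ovol1 KO 1 (-1.04, -0.86 and -0.57) or Ovol1 KO 2 (-0.97, -1.10 and -0.75). Tspan6 and Ndrg1 lost it without DKO 2 as well (-0.94 and -0.80), and Plet1 without DKO 1 (-0.52). Of 20 unfolded protein response and 23 cholesterol and fatty acid synthesis genes 0 passed in limma, with 1 and 4 at an unadjusted p below 0.05.

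**Figure D3:**
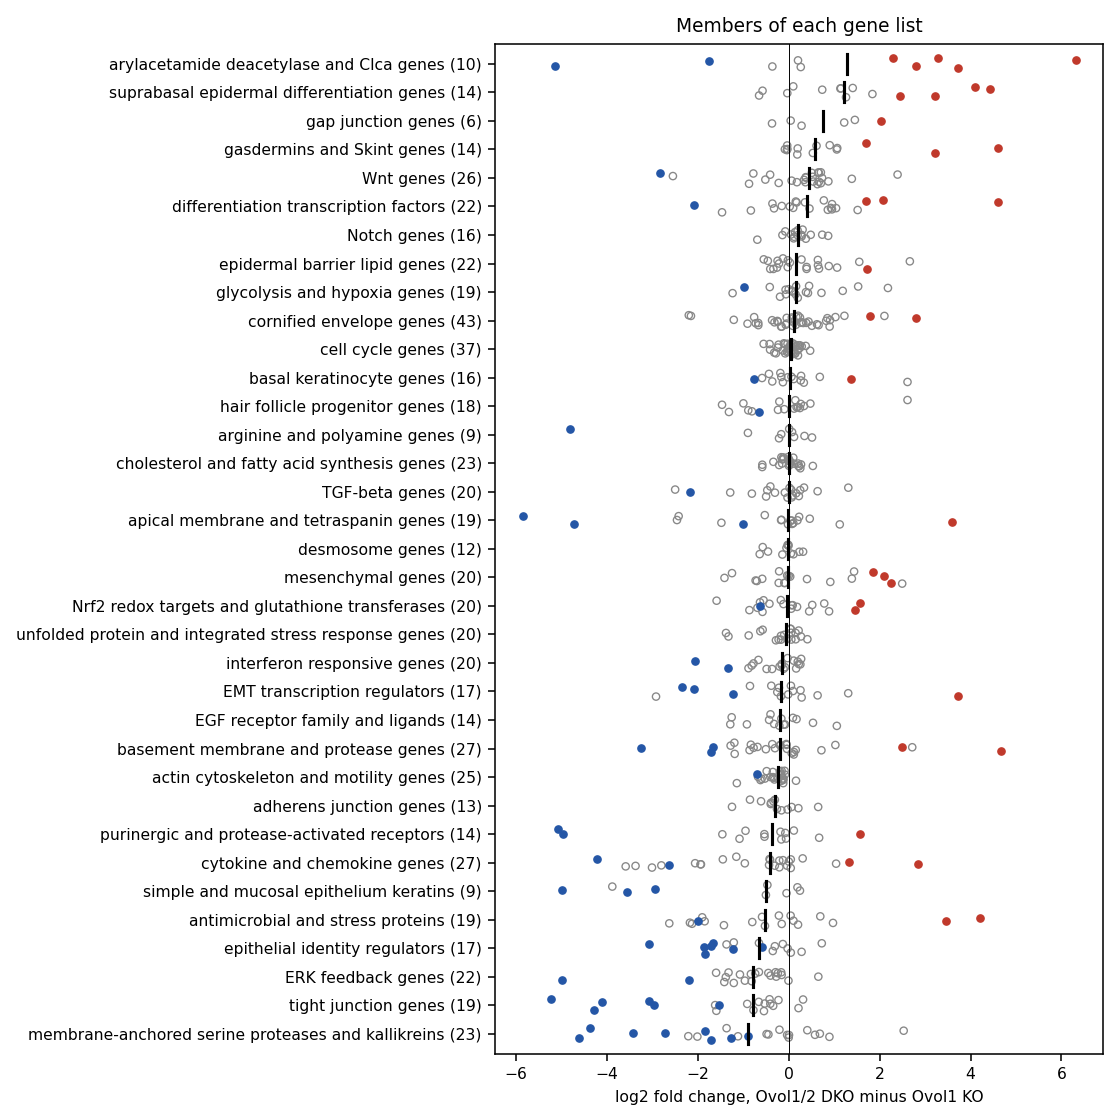
Log2 fold change of DKO minus Ovol1 KO for each member of 35 gene lists with at least 6 measured genes (number in brackets); filled red and blue points were called higher and lower, open points were not called, and the black bar is the list's median. Tight junction, protease and epithelial identity lists have their called members on the left only, and suprabasal genes on the right only.

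Markers of other cell types gave these values beside the results above. Of 12 melanocyte markers 1 fell, the receptor gene Kit, by 2.14 (8.60 and 8.58 in Ovol1 KO, 6.78 and 6.13 in DKO), and was not called without Ovol1 KO 1 (-2.12) or Ovol1 KO 2 (-2.15). The summed melanocyte level was 12.98 and 11.18 in Ovol1 KO and 11.48 and 11.09 in DKO, so Ovol1 KO 1 stood highest. Of 6 Schwann cell markers Pmp22 and Mbp fell by 1.03 and 1.07. Of the 6, 3 had a value above 0, among them S100b at 0.33 and Cnp at 0.28, and the median was 0.0001. Cidea, a lipid droplet gene also made by fat cells, fell by 2.95 among 8 adipocyte markers, of which 6 had a value above 0. Adipoq stayed between 6.12 and 6.47 on the 4 arrays. Pmp22 lost its call without Ovol1 KO 1 (-0.91), DKO 1 (-1.09) or DKO 2 (-0.97), Mbp without any 1 of the 4 (-1.10 to -1.04), and Cidea kept its call throughout. No call was made by limma among 12 leukocyte, 10 endothelial, 7 Merkel cell and 9 muscle markers, of which 2 endothelial markers had an unadjusted p below 0.05. The part of these cells in the results was not tested.

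Of the 72 genes that kept their call throughout, some lie outside these lists and were chosen after their values were seen. Igfbp7, a secreted binding protein gene, lay at 13.43 and 13.51 in Ovol1 KO and at 10.44 and 10.67 in DKO and fell by 2.91 (SE 0.11, limma adjusted p = 0.00015). Itgb6, the integrin subunit of the TGF-beta activating receptor of epithelia, fell by 3.65 (11.83 and 11.75 against 7.91 and 8.38). The guidance genes Sema3c and Nrp2, a ligand and a receptor of the semaphorin system, fell by 2.67 and 3.64, and Fst, which encodes the activin antagonist follistatin, fell by 2.65. Mxd1, which encodes an antagonist of Myc, fell by 2.37 (12.22 and 12.00 against 9.63 and 9.84). Il22ra2, a secreted decoy receptor of interleukin 22, rose by 3.28 (7.21 and 7.10 against 10.62 and 10.26). In none of these did the DKO arrays come near the Ovol1 KO or control arrays.

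Genes that moved together in the same direction were also sought by position. In the order of tested genes along the RefSeq chromosomes, 53 of the 429 called genes stood in 25 runs of at least 2 neighbours called in the same direction, 23 of them higher and 30 lower. The longest was the arylacetamide deacetylase run of 4. A run of 3 joined Calm4 and Calm5, calmodulin-like genes of epidermis, to Net1 on chromosome 13. Calm4 rose by 2.27, Calm5 by 2.04 and Net1 by 0.72, and none of the 3 kept its call throughout. Further pairs were Cldn3 with Cldn4 and Stfa2 with Stfa3. Whether these runs are more than position alone would give was not tested, and close copies such as Stfa2 and Stfa3 may share probes.

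Promoter sequences from RefSeq (GRCm38.p6) were searched on both strands for CCGTTA, the recognition core of Ovol factors, over 250 bases before and 50 after each start. The table held 19177 windows for 15614 of the tested genes, 94 of the rises and 224 of the falls, and a gene with several starts counts once per start. CCGTTA was in 3.11% of all windows, in 5.04% of those of genes that rose (6 of 119) and in 3.61% of those of genes that fell (10 of 277). Of the 30 largest rises and falls 19 had a promoter in the table and 2 held the motif. Both are shown without the bases after the start, 5′ to 3′ on the strand of the gene, because they are the only ones of these genes with a match, which is in capitals.
Igfbp4 (rose; chr11:99040994-99041243, plus strand, match on the opposite strand): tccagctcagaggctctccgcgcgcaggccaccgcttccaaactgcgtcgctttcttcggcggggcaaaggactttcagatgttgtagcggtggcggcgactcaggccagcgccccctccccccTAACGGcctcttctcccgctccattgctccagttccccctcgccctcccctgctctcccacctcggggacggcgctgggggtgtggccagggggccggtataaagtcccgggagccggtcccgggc
Clca3b (fell; chr3:144849303-144849552, minus strand, match on the same strand): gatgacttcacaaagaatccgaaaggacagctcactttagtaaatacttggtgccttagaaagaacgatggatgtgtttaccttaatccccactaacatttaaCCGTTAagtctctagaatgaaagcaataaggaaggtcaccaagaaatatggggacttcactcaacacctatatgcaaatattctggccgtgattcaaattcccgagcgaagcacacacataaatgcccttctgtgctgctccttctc
The match lies 126 to 121 bases before the start in Igfbp4 and 147 to 142 bases before it in Clca3b. A match is a run of letters and not a shown binding site.

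The E-box CACCTG, the core that Zeb and Snail factors recognize, was commoner in the promoters of genes that fell. It was in 32.1% of their windows (89 of 277), in 15.1% of those of genes that rose (18 of 119) and in 19.6% of all windows. At least 2 matches were in 10.8% of the windows of genes that fell (30 of 277), in 1.68% of those of genes that rose and in 2.89% of all. This count of 2 or more and the comparisons that follow were added after the first shares were seen, and no test was made. Another E-box, CAGCTG, was in 18.4%, 14.3% and 16.3%, and a match of one motif may overlap one of another. Median GC content was 61.0% in genes that fell, 54.7% in genes that rose and 57.3% overall. Within windows of 55 to 65% GC, CACCTG was in 47.3% of those of genes that fell (43 of 91) and in 22.1% of all. These shares were 23.0% and 19.2% over 65% GC, 31.5% and 20.8% at 45 to 55%, and 18.8% (6 of 32) and 13.0% under 45%. In genes that rose the shares were 12.5%, 13.2%, 19.4% and 15.4%, from the lowest band to the highest. Among the falls that kept their call throughout, 16 of 45 windows (35.6%) held it.

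Printed here are the promoters of the 3 named genes that kept their fall throughout and hold at least 2 CACCTG matches before the start, each match in capitals as CACCTG or, on the opposite strand, CAGGTG.
Cldn7 (chr11:69965171-69965420, plus strand): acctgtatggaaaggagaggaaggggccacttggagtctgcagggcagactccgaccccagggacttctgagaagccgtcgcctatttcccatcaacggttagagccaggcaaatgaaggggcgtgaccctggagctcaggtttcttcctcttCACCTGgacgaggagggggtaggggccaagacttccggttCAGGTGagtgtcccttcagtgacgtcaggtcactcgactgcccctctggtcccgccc
Epcam (chr17:87635729-87635978, plus strand): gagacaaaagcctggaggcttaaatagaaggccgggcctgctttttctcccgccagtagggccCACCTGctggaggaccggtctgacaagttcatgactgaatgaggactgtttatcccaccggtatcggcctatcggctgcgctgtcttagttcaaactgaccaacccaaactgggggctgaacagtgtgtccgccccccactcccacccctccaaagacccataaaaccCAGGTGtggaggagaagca
Tspan1 (chr4:116167599-116167848, minus strand): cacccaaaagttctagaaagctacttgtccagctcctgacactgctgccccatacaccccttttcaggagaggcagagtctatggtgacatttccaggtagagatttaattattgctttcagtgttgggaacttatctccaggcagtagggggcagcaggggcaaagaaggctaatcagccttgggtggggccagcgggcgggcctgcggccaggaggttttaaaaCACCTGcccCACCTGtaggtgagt
The matches begin 97 and 57 bases before the start in Cldn7, 187 and 19 in Epcam, and 24 and 15 in Tspan1. These were the genes whose DKO values were 4.52 and 4.51, 8.62 and 9.25, and 4.84 on both arrays. Cldn3, Krt8, Krt7 and Elf3, in 1 window each, held 1 match, Cldn4, Cldn6 and Pard6b held 2, Spint2 held 3, and Mal and Spint1 held 0. Crb3, in 2 windows, held 8. A promoter for Zeb1, Krt19, Marveld3, St14 or Prss8 was not used here.

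**Figure D4:**
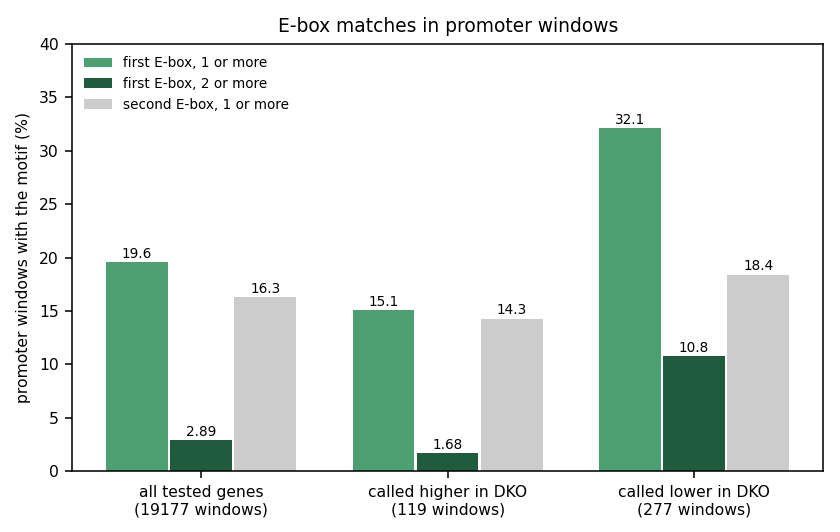
Percentage of RefSeq promoter windows, from 250 bases before to 50 after a start, that hold the first E-box (CACCTG) at least once, the first E-box at least 2 times, and the second E-box (CAGCTG) at least once, for all tested genes and for genes called higher or lower in DKO. The first E-box stands at 32.1% in genes that fell against 19.6% in all, and the second at 18.4% against 16.3%.

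**Figure D5:**
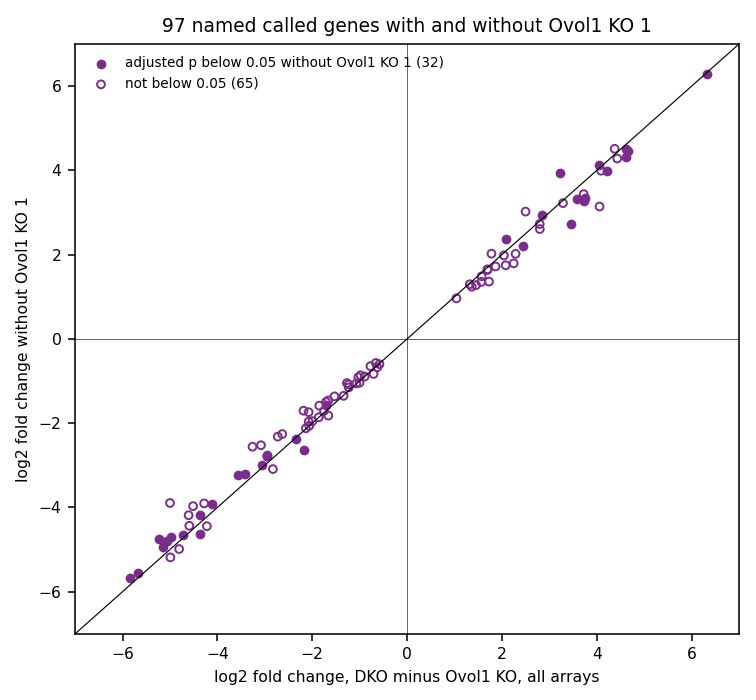
Log2 fold change of DKO minus Ovol1 KO for the 97 named genes that were called, from all arrays (horizontal) and without Ovol1 KO 1 (vertical), with the line of equal values; filled points had an adjusted p below 0.05 without that array (32) and open points did not (65). The points lie close to the line, but these genes were called with that array in the fit, so this is no independent check. The sign of these 97 could not change, since their DKO and Ovol1 KO arrays did not overlap.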

How the data were processed

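The authors deposited 1 intensity per probe set and array, already summarised from the probes, on a linear scale. Per the submitters' processing notes, Affymetrix Expression Console 1.1.1 and PLIER 2.0 were used, with no role stated; the sources used here do not state the background correction or normalization. From the 35556 probe sets, 21789 had 1 gene symbol (21698 matched to RefSeq), and the brightest probe set of a gene was kept. Intensities were increased by 16, log2-transformed and quantile-normalized, since array quartiles differed by up to 0.218. Of the 429 called genes 19 had a further probe set, with 1 opposite in sign. limma 3.58.1 (R 4.3.3) fitted 3 group means over 6 arrays with a variance trend (3 residual and 3.89 prior degrees of freedom), and p-values were adjusted by Benjamini-Hochberg over all genes. The number of arrays limits precision, since none carries a count or depth.

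Named were Ovol1 and Ovol2, the 15 largest called rises and 15 largest called falls with no overlap (predicted and receptor-cluster genes skipped), and per list every called member or the 4 smallest p. Genes outside this rule, mostly members of the lists that did not pass, were picked with their values in view. The members and lists were chosen with earlier results of these data known. The fit was tested on simulated data. Alternatives varied the offset, normalization, gene filter, probe set rule, eBayes settings, arrays fitted, a replicate block and an Xist covariate.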

Additional observations from a re-analysis of the deposited data

How the results depend on the processing

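Against 429 called genes, fitting only the 4 compared arrays gave 738, a block on the replicate number 805, and adding the Xist level as a covariate, 74, which rests on the difference between the 2 Ovol1 KO arrays. Leaving out 1 array at a time gave 88 to 738. Under other offsets, the values as deposited, median centring, the dimmest 30% of genes left out, other eBayes settings and the mean over probe sets it ran from 358 to 493. All 97 named called genes kept their sign in every setting run, and 28 kept their call with each array left out. Of the 97, 70 lost their call with the Xist covariate and 65 without Ovol1 KO 1. With the replicate block Gjb2 lost its call and no other named gene did. In called genes the DKO and Ovol1 KO arrays did not overlap, so leaving out 1 array could not change a sign. The deviations of same-numbered arrays from their group means correlated over genes at 0.087 between Ovol1 KO and DKO, 0.151 between control and DKO and 0.687 between control and Ovol1 KO. The levels of control 1 and Ovol1 KO 1 correlated at 0.994, and those of control 2 and Ovol1 KO 2 at 0.992. Within groups the values were 0.979 for control and 0.978 for Ovol1 KO. The main fit takes the arrays as independent. With 2 numbers and no label that ties them to a litter or day, whether they pair the arrays is not settled, and the block was kept as an alternative. Dim genes have no detection call, and their fold changes depend on the offset.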

Other observations

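Among the 13767 probe sets that name no gene or several, 0 were called in limma when adjusted over these probe sets alone (smallest adjusted p = 0.061), and 979 had an unadjusted p below 0.05.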
